A study of Mus musculus with 7 samples.

Results

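The genes described here are 10 markers of mast cells and basophils, chosen by name: Cpa3, Mcpt4, Cma1, Tpsb2, Tpsab1, Kit, Fcer1a, Ms4a2, Hdc and Gata2. All 10 were found among the 24421 genes of the deposited count table. Polyadenylated RNA had been sequenced from 7 mouse tumours, each from a separately named mouse, at week 4. Of these, 4 mice had received anti-PD-1, a checkpoint antibody that releases T cells, with anti-LAIR1, directed at a leukocyte receptor that binds collagen and restrains the cell. In 3 control mice anti-PD-1 was given with anti-KLH, an antibody against keyhole limpet haemocyanin, so that the controls also had PD-1 blockade. The series text gives 10 mg/kg of anti-LAIR and 8 mg/kg of anti-PD-1 for tumours grown under the skin from the lung cancer line 344SQ in 129/Sv mice, and it also describes tumours arising in the lungs of engineered mice. The labels leave unsaid which kind these 7 tumours were, and the sex and age of the mice. The names of the treated mice begin with WTSV and those of the controls with LOHM or KWM. Whatever the prefixes stand for and the antibody treatment therefore cannot be told apart.

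Mast cells are long-lived tissue cells that store proteases, histamine and heparin in granules and release them when IgE bound to their high-affinity receptor meets antigen. Connective tissue mast cells of the mouse, found in skin and around vessels, carry the chymases Mcpt4 and Cma1, the tryptases Tpsb2 and Tpsab1 and the carboxypeptidase Cpa3. Mucosal mast cells carry Mcpt1 and Mcpt2, and basophils, their short-lived blood relatives, carry Mcpt8 and Prss34. In the bulk RNA used here, fewer cells of a type and less RNA per cell cannot be told apart.

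No member passed the test across all genes, and the members differed among themselves in their pattern over the tumours. By edgeR's quasi-likelihood test with Benjamini-Hochberg adjustment, 0 of the 8 members with enough reads and 0 of all 13545 tested genes had an adjusted p under 0.05 (0% of genes). At an unadjusted p under 0.05, 697 genes were found (5.15%), and at an adjusted p under 0.05 DESeq2 called 54 genes (0.39%) and limma-voom 0, with no member among them. Unadjusted, 2 of the 8 tested members, Cma1 and Kit, had p under 0.05 with a higher level under anti-LAIR1, beside 3.51% of all tested genes in that direction. None was lower at that level, beside 1.63% of all genes. The groups overlapped for all 10 members, while 3.06% of tested genes were higher and 2.51% lower without overlap. Of the 8 tested members 7 had a fold change above 0 and 1 below, with a median of 0.72 on the log2 scale, whereas 49.1% of all tested genes were above 0 and their median was -0.0028. The members' median was 0.26 when control replicate 1 was left out. The 8 passed a filter on low reads, so they do not stand for all 10 members.

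Promoter windows are shown first for 4 granule protease genes, because these carry the contrasts described below: Cpa3 and Cma1 stood at low levels that differed widely between libraries, while Mcpt4 stood higher and kept a near-constant ratio to Mcpt2 of the same chymase locus, and Mcpt1 was one of the abundant proteases of that locus. Each window runs from 250 bases before a listed start of the gene to 50 bases after it, 5′ to 3′ on the gene's strand (RefSeq, GRCm38.p6). Capitals mark matches to AGATAA or TGATAA on either strand, letters bound by GATA factors such as the product of Gata2. The windows are chr3:20242132-20242431 for Cpa3, chr14:55944626-55944925 for Cma1 and chr14:56062261-56062560 for Mcpt4, all on the minus strand, and chr14:56017714-56018013 on the plus strand for Mcpt1.
Cpa3: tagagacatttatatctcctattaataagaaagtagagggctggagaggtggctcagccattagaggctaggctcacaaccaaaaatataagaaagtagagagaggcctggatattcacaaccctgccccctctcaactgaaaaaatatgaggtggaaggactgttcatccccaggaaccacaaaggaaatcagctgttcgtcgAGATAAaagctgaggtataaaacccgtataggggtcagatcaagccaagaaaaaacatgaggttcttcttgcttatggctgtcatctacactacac
Cma1: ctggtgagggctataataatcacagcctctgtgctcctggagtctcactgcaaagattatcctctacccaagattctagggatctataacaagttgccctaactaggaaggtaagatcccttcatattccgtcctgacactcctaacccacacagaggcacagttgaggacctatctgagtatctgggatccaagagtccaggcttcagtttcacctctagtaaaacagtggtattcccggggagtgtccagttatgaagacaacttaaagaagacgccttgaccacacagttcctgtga
Mcpt4: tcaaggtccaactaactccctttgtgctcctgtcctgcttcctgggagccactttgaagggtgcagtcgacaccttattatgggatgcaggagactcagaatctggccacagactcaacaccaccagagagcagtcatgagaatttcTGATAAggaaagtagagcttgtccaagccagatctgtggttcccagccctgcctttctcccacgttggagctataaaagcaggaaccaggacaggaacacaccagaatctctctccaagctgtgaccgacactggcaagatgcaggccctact
Mcpt1: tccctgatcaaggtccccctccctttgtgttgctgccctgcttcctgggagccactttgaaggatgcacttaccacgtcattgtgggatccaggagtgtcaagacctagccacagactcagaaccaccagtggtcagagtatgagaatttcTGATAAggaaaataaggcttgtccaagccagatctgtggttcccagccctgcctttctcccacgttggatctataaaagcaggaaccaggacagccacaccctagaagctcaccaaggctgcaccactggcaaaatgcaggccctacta

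The match in Cpa3 began 46 bases before the start used for its window, that in Mcpt4 103 bases and that in Mcpt1 99 bases. Cma1 held none in its window. For Cpa3 the start used was 20242181, which lies inside the gene position given below, as that reaches 20242209. Windows were available for 8 of the 10 members, and 4 of these held a match: Cpa3, Mcpt4, Fcer1a and Ms4a2. The same letters occurred in 18.6% of 32851 promoter windows of that length. A match is a description of letters only. The transcripts of Mcpt4 and Mcpt1 shared 84.9% of aligned bases, and those of Mcpt4 and Mcpt2 78.7%. Stretches of 100 bases, the length of the reads, were then compared. Of 1009 such stretches in Mcpt4, 1 occurred exactly in another gene, Cma2. Only exact matches were counted, so how reads with mismatches were assigned between these genes was not tested. Tpsb2 and Tpsab1 shared 74.5% of aligned bases and 0 such stretches, and Ms4a2 shared 0.567% of its stretches with Ms4a4b.

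Cpa3, mast cell carboxypeptidase A (chromosome 3, 20215616 to 20242209, GRCm38), had 58, 73, 18 and 55 reads in anti-LAIR1 replicates 1 to 4, and 10, 50 and 28 reads in control replicates 1 to 3. As CPM, the read count scaled to the size of its library, this was 3.82, 4.86, 1.55 and 4.00 with anti-LAIR1, against 0.396, 3.74 and 2.85 in controls. Control replicate 1, the deepest library with 26255727 reads, stood lowest, anti-LAIR1 replicate 3 stood lower than the other 2 controls, and the groups overlapped. The 4 anti-LAIR1 libraries averaged 3.56 ± 1.41 CPM (SD) and the 3 control libraries 2.33 ± 1.73 CPM (SD), a log2 fold change of 0.68 with a 95% interval from -0.84 to 2.20. This value was 0.11 without control replicate 1 and was 1.28 without control replicate 2.

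Cma1, a connective tissue mast cell chymase (chromosome 14, 55941451 to 55944675), had 24, 36, 19 and 44 reads with anti-LAIR1, against 5, 22 and 6 in controls. In CPM these were 1.58, 2.40, 1.64 and 3.20 with anti-LAIR1, and 0.198, 1.65 and 0.611 in controls. Control replicates 1 and 3 were below every treated library, while control replicate 2 lay among them. The log2 fold change was 1.50 (SE 0.62, edgeR adjusted p = 0.952), with a 95% interval from 0.09 to 2.90. It was 0.92 without control replicate 1 and 2.61 without control replicate 2, and neither value passed the adjusted test.

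Tpsb2, the tryptase of connective tissue mast cells (chromosome 17, 25366308 to 25368096), had 80, 107, 45 and 86 reads with anti-LAIR1, against 27, 76 and 35 in controls. Its levels were 5.27, 7.12, 3.89 and 6.25 CPM with anti-LAIR1, and 1.07, 5.69 and 3.56 CPM in controls. The order of libraries was close to that of Cpa3, with control replicate 1 lowest and anti-LAIR1 replicate 2 highest. The log2 fold change of 0.75 had a 95% interval from -0.36 to 1.86, and it was 0.27 without control replicate 1.

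Mcpt4, a chymase that cuts matrix proteins and other mediators (chromosome 14, 56059744 to 56062310), had 249, 191, 146 and 148 reads with anti-LAIR1, against 200, 172 and 88 in controls. The levels were 16.4, 12.7, 12.6 and 10.8 CPM with anti-LAIR1, and 7.92, 12.9 and 8.96 CPM in controls. All libraries lay within a narrow range, and control replicate 2 exceeded all treated libraries but replicate 1. Its log2 fold change was 0.41 with a 95% interval from -0.064 to 0.88.

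Tpsab1, the other mast cell tryptase (chromosome 17, 25343245 to 25345562), had 576, 475, 281 and 1084 reads with anti-LAIR1, against 832, 226 and 144 in controls. The RefSeq table lists it as a transcribed pseudogene, as the reference strain carries a splicing defect in this gene, while GENCODE M21 lists it as protein-coding. Levels were 37.9, 31.6, 24.3 and 78.8 CPM with anti-LAIR1, and 32.9, 16.9 and 14.7 CPM in controls. Anti-LAIR1 replicate 4 stood far above the rest, and control replicate 1, the lowest library for the other 4 proteases, was exceeded by only anti-LAIR1 replicates 1 and 4. The log2 fold change of 0.98 had a 95% interval from -0.11 to 2.07, and it was 0.52 without anti-LAIR1 replicate 4. In that library the summed level of 9 lung epithelium markers, of which Scgb3a2 was at 0 throughout, was also highest, at 3341 CPM beside 1237 to 1748 CPM in the other treated libraries and 1386 to 1682 CPM in controls. Most of this sum was Sftpb, at 3103 CPM in anti-LAIR1 replicate 4, beside 1094 to 1582 CPM in the other treated libraries and 1184 to 1536 CPM in controls. Of the other tested markers, Nkx2-1 and Ager were also highest in that library and Sftpa1 was not. The part of lung epithelium in the Tpsab1 level was not tested.

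**Figure D1:**
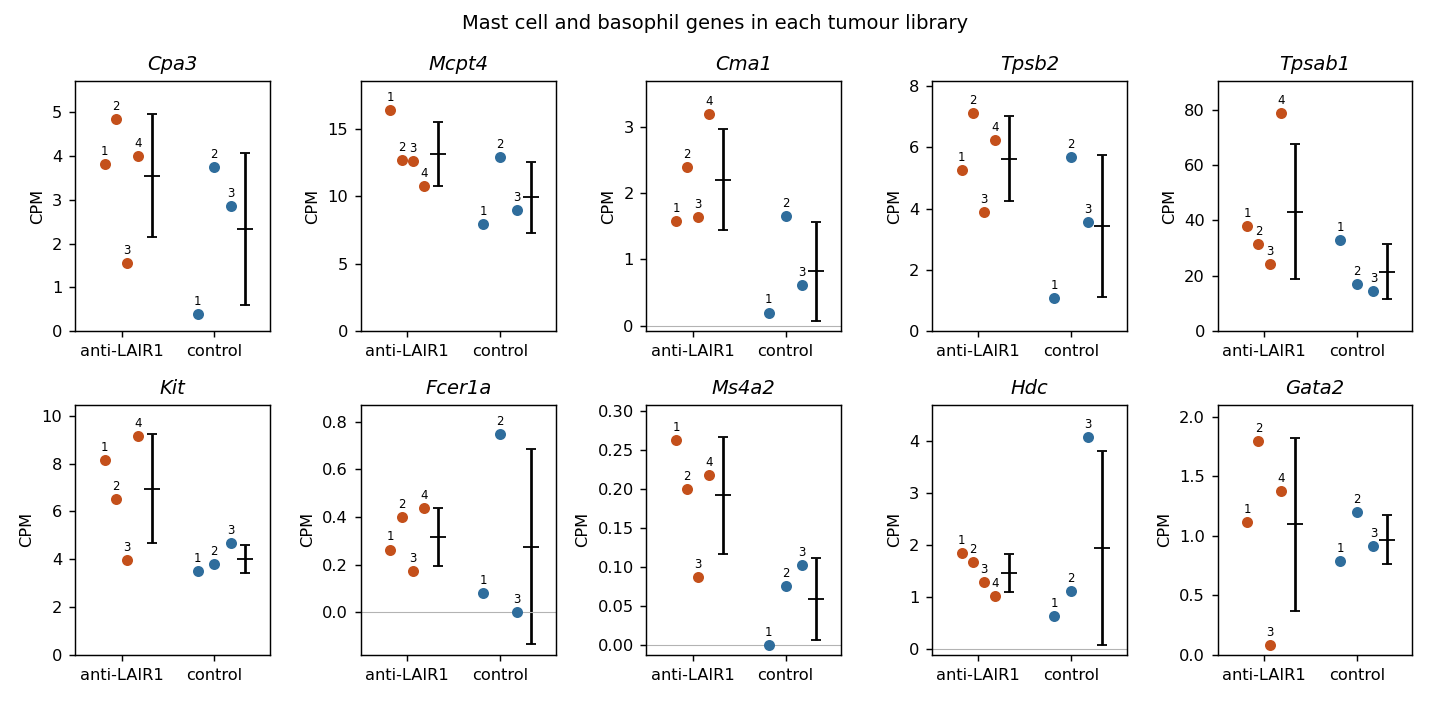
Level of each member in CPM (y axis) in the 4 anti-LAIR1 libraries (orange, left) and the 3 control libraries (blue, right), numbered by replicate, with the group mean and SD as a black bar. The groups overlap in all 10 panels, and control replicate 1 is the lowest point for Cpa3, Mcpt4, Cma1 and Tpsb2 but not for Tpsab1.

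Kit, the receptor of stem cell factor on which mast cell survival depends (chromosome 5, 75574987 to 75656722), had 124, 98, 46 and 126 reads with anti-LAIR1, against 89, 51 and 46 in controls. In CPM this was 8.16, 6.52, 3.97 and 9.15 with anti-LAIR1, and 3.52, 3.82 and 4.68 in controls. Of the treated libraries 3 exceeded all controls, and replicate 3 lay among the controls. The 4 anti-LAIR1 libraries averaged 6.95 ± 2.27 CPM (SD) and the 3 control libraries 4.01 ± 0.603 CPM (SD). The log2 fold change was 0.81 (SE 0.29, edgeR adjusted p = 0.933), with a 95% interval from 0.16 to 1.46. Leaving out single libraries moved this value between 0.65 and 1.00. Kit is also made by other cells, among them melanocytes, interstitial cells of Cajal and some innate lymphoid cells. Of 7 melanocyte markers 5 (Tyr, Dct, Tyrp1, Mlana and Oca2) were at 0 in all libraries, and their summed level ran from 0.2 to 0.593 CPM with anti-LAIR1 and from 0.119 to 0.224 CPM in controls. The 4 markers of interstitial cells of Cajal, all detected, summed to 1076 to 1395 CPM with anti-LAIR1 and 1162 to 1286 CPM in controls, nearly all from Ano1 and Gja1, which other cells also make. The 8 markers of type 2 innate lymphoid cells, 5 of them detected in every library, summed to 63.8 to 86.5 CPM with anti-LAIR1 and 65.0 to 105 CPM in controls. The largest part was Areg, with 39.4 to 56.0 CPM with anti-LAIR1 and 43.5 to 78.1 CPM in controls. Among the 8, Il2ra and Il7r, receptor chains that T cells also carry, were higher in every treated library than in every control. Their log2 fold changes were 1.24 and 0.69 (edgeR adjusted p = 0.736 and 0.933). The other tested markers did not share this, with log2 fold changes of -0.42 for Gata3, -0.35 for Areg and 0.055 for Rora. The part of these cells in the Kit level was not tested.

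The chains specific to the high-affinity IgE receptor were close to the limit of detection. Fcer1a, the IgE-binding chain (chromosome 1, 173221269 to 173227232), had 4, 6, 2 and 6 reads with anti-LAIR1, against 2, 10 and 0 in controls. Ms4a2, the signal-amplifying beta chain (chromosome 19, 11615517 to 11623790), had 4, 3, 1 and 3 reads with anti-LAIR1, against 0, 1 and 1 in controls. A count of 3 reads was worth 0.119 to 0.305 CPM in these libraries, so most values of Ms4a2 lay at or under that floor. Both genes were below the filter and were not tested with the others, and a difference was not detectable at this depth. An exact two-sided permutation test of CPM gave p = 0.857 for Fcer1a and p = 0.0857 for Ms4a2, where 4 against 3 libraries allow no p under 0.0286. Over the 10 members the smallest p of this test was 0.0857.

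Hdc, the enzyme that makes histamine (chromosome 2, 126593659 to 126624025), had 28, 25, 15 and 14 reads with anti-LAIR1, against 16, 15 and 40 in controls. Control replicate 3 alone stood high, at 4.07 CPM beside 0.634 and 1.12 CPM in the other controls and 1.02 to 1.84 CPM with anti-LAIR1. Its log2 fold change was -0.32 (95% interval from -1.67 to 1.02) and turned to 0.76 without control replicate 3. That library also had the highest sum of 9 measured epidermal markers, 3 of them detected in every library. The epidermal sum there was 143 CPM, beside 15.0 to 25.9 CPM with anti-LAIR1 and 25.9 and 36.6 CPM in the other controls. Control replicate 3 had the highest sum of neutrophil markers too (11 measured, Camp at 0), at 12.2 CPM. The neutrophil sum was 5.81 to 10.2 CPM with anti-LAIR1 and 4.40 and 4.56 CPM in the other controls. The part of either in the Hdc level was not tested.

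Gata2, a transcription factor of mast cell, basophil and progenitor identity that endothelial cells also use (chromosome 6, 88193891 to 88207032), had 17, 27, 1 and 19 reads with anti-LAIR1, against 20, 16 and 9 in controls. Anti-LAIR1 replicate 3 thus held 1 read where no other library held fewer than 9. Its summed level of 12 endothelial markers, none at 0, was 282 CPM, inside the range of 235 to 342 CPM with anti-LAIR1 and above the 237 to 261 CPM of controls. Flt1 was the largest part of the sum in that library, at 145 CPM. Any part of endothelial cells in the Gata2 level was not tested. The log2 fold change of 0.22 had a 95% interval from -1.22 to 1.66, was -0.12 without anti-LAIR1 replicate 2 and was -0.50 by limma-voom.

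**Figure D2:**
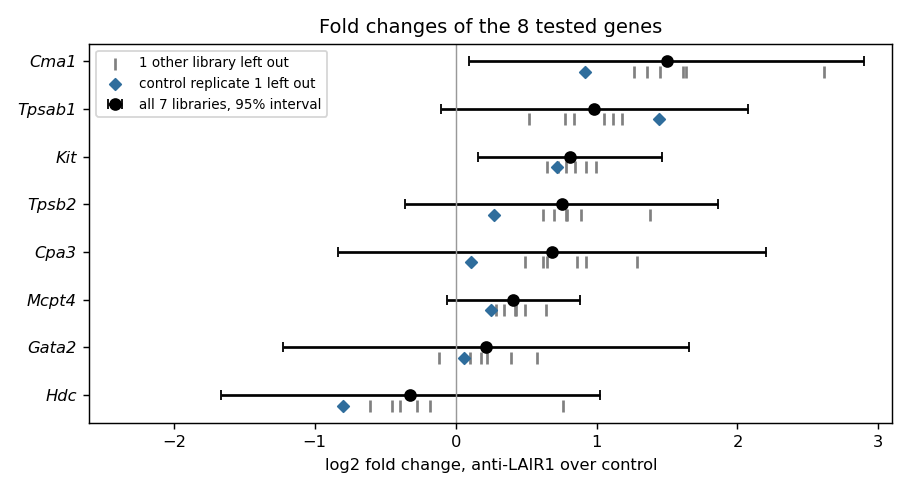
Log2 fold change, anti-LAIR1 over control (x axis), of the 8 tested members (rows), with 95% intervals from edgeR (black) and the values after leaving out control replicate 1 (blue diamonds) or 1 other library (grey ticks). The intervals of Cma1 and Kit lie above 0 before adjustment, and the values of Cpa3 and Tpsb2 drop to 0.11 and 0.27 without control replicate 1.

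Levels of different genes were compared as CPM per kilobase of the longest coding transcript in GENCODE M21. The order of the members by this level, averaged over the 7 libraries, was Tpsab1 (17.6), Mcpt4 (10.6), Tpsb2 (3.64), Cpa3 (2.09), Cma1 (1.48), Kit (1.09), Hdc (0.696), Fcer1a (0.3), Gata2 (0.292) and Ms4a2 (0.0564 CPM per kilobase). Of neighbours in this order, Mcpt4 and Tpsb2 had ranges over libraries that did not overlap, Mcpt4 reaching down to 7.15 and Tpsb2 up to 5.52 CPM per kilobase, and the ranges of all other neighbours overlapped. Tpsab1 and Mcpt4 thus stood apart from the other members in level.

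Of 8 other granule proteases, 3 were more abundant per kilobase of transcript than any member. The other 5 (Mcpt9, Cma2, Ctsg, Tpsg1 and Prss34) had at most 7 reads in any library. Mcpt2, a protease of mucosal mast cells (chromosome 14, 56021584 to 56044635), averaged 293 ± 55.6 CPM per kilobase with anti-LAIR1 (SD, n = 4) and 227 ± 31.7 in controls (SD, n = 3). Mcpt8, the basophil protease (chromosome 14, 56082163 to 56085499), averaged 127 ± 71.0 with anti-LAIR1 and 182 ± 71.3 CPM per kilobase in controls. Mcpt1, the other mucosal mast cell protease, named after its values were seen (chromosome 14, 56017964 to 56020391), averaged 137 ± 52.0 with anti-LAIR1 and 118 ± 27.6 CPM per kilobase in controls. The lowest value of these 3 genes in any library, 64.7 CPM per kilobase, exceeded the highest of any member, 40.9 for Tpsab1. This rests on the division by transcript length. In reads, Tpsab1 exceeded Mcpt8 in anti-LAIR1 replicate 4, with 1084 against 744. The log2 fold changes of the 3 proteases were 0.37 for Mcpt2 (95% interval from -0.0054 to 0.74), -0.52 for Mcpt8 (from -1.68 to 0.64) and 0.21 for Mcpt1 (from -0.51 to 0.92).

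**Figure D3:**
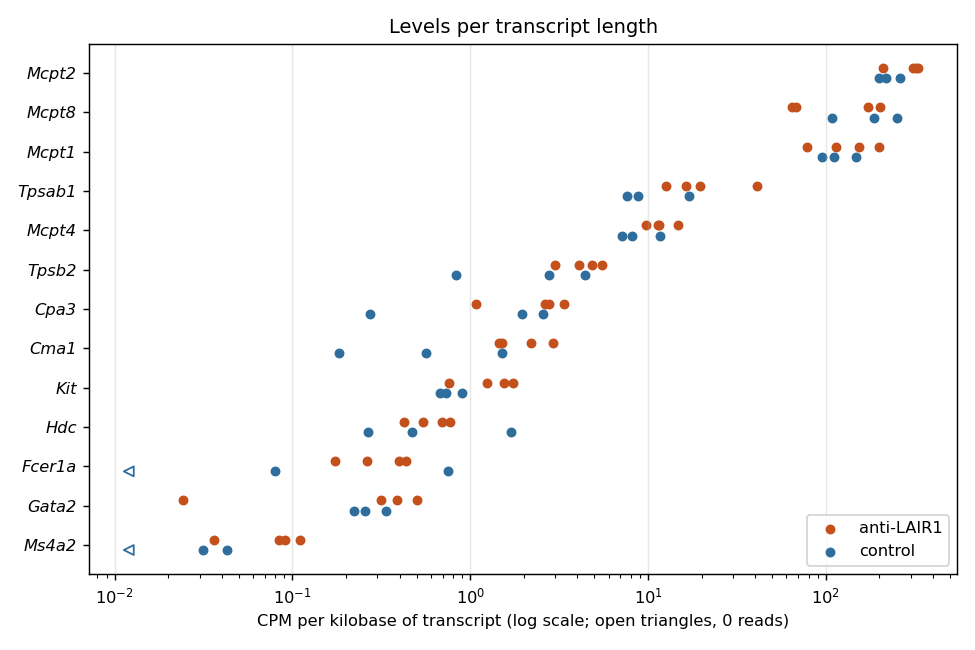
CPM per kilobase of transcript (x axis, log scale) of the 10 members and of Mcpt1, Mcpt2 and Mcpt8 (rows, ordered by mean), with 1 point for each anti-LAIR1 (orange) and control (blue) library and open triangles for 0 reads. The 3 added proteases lie between 64.7 and 330 in every library, and Fcer1a, Gata2 and Ms4a2 lie below 1.

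The receptor and granule genes that mark the same cells did not share this abundance. Prss34, the other basophil protease, had 0 reads in all 7 libraries, which allows up to 0.119 to 0.305 CPM per library. Cd200r3, a basophil and mast cell receptor named after its values were seen, had 8, 12, 2 and 9 reads with anti-LAIR1, against 13, 6 and 1 in controls. In raw counts, Mcpt1, Mcpt2 and Mcpt8 together had 26.6 to 83.1 times the reads of Cpa3, Cma1 and Tpsb2 together in anti-LAIR1 libraries, and 285, 49.5 and 73.8 times in control replicates 1, 2 and 3. The cells that made these 3 proteases were not identified in this bulk RNA. A label of mast cells or basophils for the members therefore rests on Cpa3, Cma1, Tpsb2 and Kit at low levels, with Fcer1a and Ms4a2, the chains specific to the IgE receptor, near 0.

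Mcpt4 was also set against the other chymase genes by its reads. For every 100 Mcpt2 reads there were 4.68, 3.72, 3.85 and 4.81 Mcpt4 reads with anti-LAIR1, and 3.41, 4.62 and 4.21 in controls. The ratio of Mcpt4 to Cma1 reads was 10.4, 5.31, 7.68 and 3.36 with anti-LAIR1, against 40, 7.82 and 14.7 in controls. Read against Mcpt1, Mcpt4 varied more widely, with 10.5, 6.28, 10.9 and 13.5 reads per 100 with anti-LAIR1 and 5.25, 11.4 and 9.3 in controls. These ratios were looked at after the values were seen and are given without a test.

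Whether the members varied together from tumour to tumour was asked by setting Cpa3 against each of the other 9 over the 7 libraries, on log2 CPM. Tpsb2 had the closest relation, with Pearson r = 0.97 (exact permutation p = 0.00317, adjusted over the 9 p = 0.0286) and Spearman rho = 0.93 (exact permutation p = 0.00675, adjusted p = 0.0304). Without control replicate 1 and anti-LAIR1 replicate 3, the libraries farthest from the median of Cpa3, r was 0.97 over 5 libraries, and it was 0.95 within the 4 anti-LAIR1 and 0.99 within the 3 control libraries. With single libraries left out r ran from 0.82, without control replicate 1, to 0.99. The adjusted exact permutation p then ran from 0.025 to 0.1125, and it no longer passed 0.05 without anti-LAIR1 replicate 1, 2 or 4 or without control replicate 1.

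Cma1 followed Cpa3 less tightly, with r = 0.82 (exact permutation p = 0.0286, adjusted p = 0.0857) and rho = 0.79 (exact permutation p = 0.048, adjusted p = 0.108). Without the same 2 libraries r was 0.85, and within groups it was 0.54 with anti-LAIR1 and 0.91 in controls. Gata2 had r = 0.48 (exact permutation p = 0.188, adjusted p = 0.282) but rho = 0.93 (exact permutation p = 0.00675, adjusted p = 0.0304). Its r was 0.98 without control replicate 1 (adjusted exact permutation p = 0.025), 0.76 without anti-LAIR1 replicate 3 (adjusted exact permutation p = 0.1438) and 0.96 without both. The relation of Ms4a2 had r = 0.85 (exact permutation p = 0.0139, adjusted p = 0.0625) and rho = 0.75 (exact permutation p = 0.0663, adjusted p = 0.119) on 0 to 4 reads per library, and r was 0.52 without the 2 libraries. Without control replicate 2 it was 0.94 (adjusted exact permutation p = 0.04375).

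Over the 7 libraries Mcpt4, Kit, Fcer1a, Hdc and Tpsab1 missed the threshold by both measures, as Cma1 and Ms4a2 did. Tpsab1 had r = 0.074 (exact permutation p = 0.844, adjusted p = 0.844) and rho = 0.36 (exact permutation p = 0.444, adjusted p = 0.5), with r = 0.53 within the anti-LAIR1 and -0.96 within the control libraries. Its reads were 7.2, 4.44, 6.24 and 12.6 times those of Tpsb2 with anti-LAIR1, and 30.8, 2.97 and 4.11 times in controls. The pair of tryptases thus held no fixed proportion, while Cpa3 had 0.725, 0.682, 0.4 and 0.64 reads per Tpsb2 read with anti-LAIR1 and 0.37, 0.658 and 0.8 in controls.

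**Figure D4:**
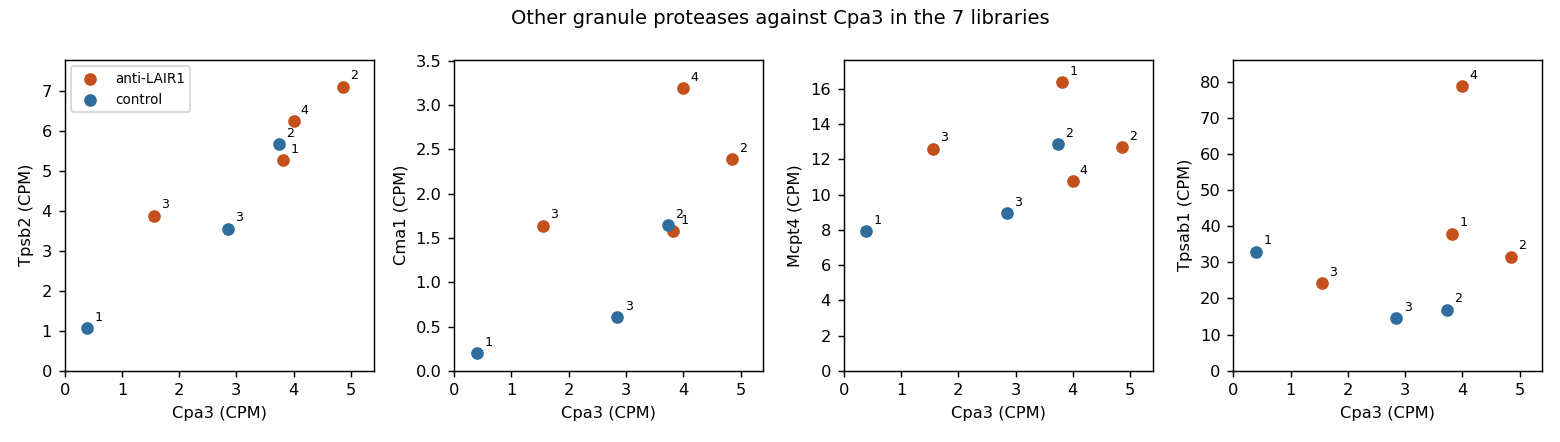
Level in CPM of Tpsb2, Cma1, Mcpt4 and Tpsab1 (y axes) against that of Cpa3 (x axis) in the 4 anti-LAIR1 (orange) and 3 control (blue) libraries, numbered by replicate. Tpsb2 lies close to a line (r = 0.97 on log2 CPM), and Tpsab1 does not (r = 0.074), with anti-LAIR1 replicate 4 at 78.8 CPM and control replicate 1 at 32.9 CPM.

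The genes whose pattern was most like the mean of Cpa3, Cma1, Mcpt4 and Tpsb2 across the 7 libraries, among tested genes outside the lists, were Lsm12 (Pearson r = 0.96), C3 (0.96), Prex2 (0.96), Gstm2 (0.96) and Psmb7 (0.95). These were picked as the highest of the tested genes and are described without a p. C3, the central complement component, had 219, 232, 142 and 256 CPM with anti-LAIR1, against 65.0, 218 and 166 CPM in controls, again with control replicate 1 lowest and control replicate 2 among the treated libraries.

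Libraries also differed in other tissue markers, and these are set beside the sum of Cpa3, Cma1 and Tpsb2. This sum was 10.7, 14.4, 7.08 and 13.4 CPM with anti-LAIR1, against 1.66, 11.1 and 7.02 CPM in controls. Of the 9 adipocyte markers 5 were detected in every library. The sum of the 9 was highest in anti-LAIR1 replicate 2, at 142 CPM beside 9.81 to 18.8 CPM in the other treated libraries. Among controls it was highest in control replicate 2, at 30.8 CPM beside 8.95 and 13.03 CPM in the other controls. The same 2 libraries were the highest of their groups for the protease sum. The part of adipocytes in the protease sum was not tested. When both libraries were left out, the log2 fold changes of Cpa3, Cma1 and Tpsb2 were 1.08, 2.57 and 1.23, with adjusted p at 1 by edgeR. This alternative was chosen after seeing the data. Both libraries were the highest of their groups for this same sum, so leaving them out does not test that part. The 15 striated muscle markers, 4 of them detected in every library, summed to 128, 16.2, 91.3 and 126 CPM with anti-LAIR1, and 11.3, 13.8 and 15.5 CPM in controls. Their part in the fold changes of the members was not tested.

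The 15 pan-leukocyte markers, all detected, summed to 271, 228, 212 and 293 CPM with anti-LAIR1, against 203, 165 and 167 CPM in controls, without overlap. Expressed as a percentage of that sum, Cpa3, Cma1 and Tpsb2 made 4.54 ± 1.28% with anti-LAIR1 (SD, n = 4) and 3.91 ± 2.96% in controls (SD, n = 3). The values per library were 3.93, 6.31, 3.34 and 4.58% with anti-LAIR1, and 0.821, 6.71 and 4.20% in controls, so that the highest and the lowest were both controls.

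**Figure D5:**
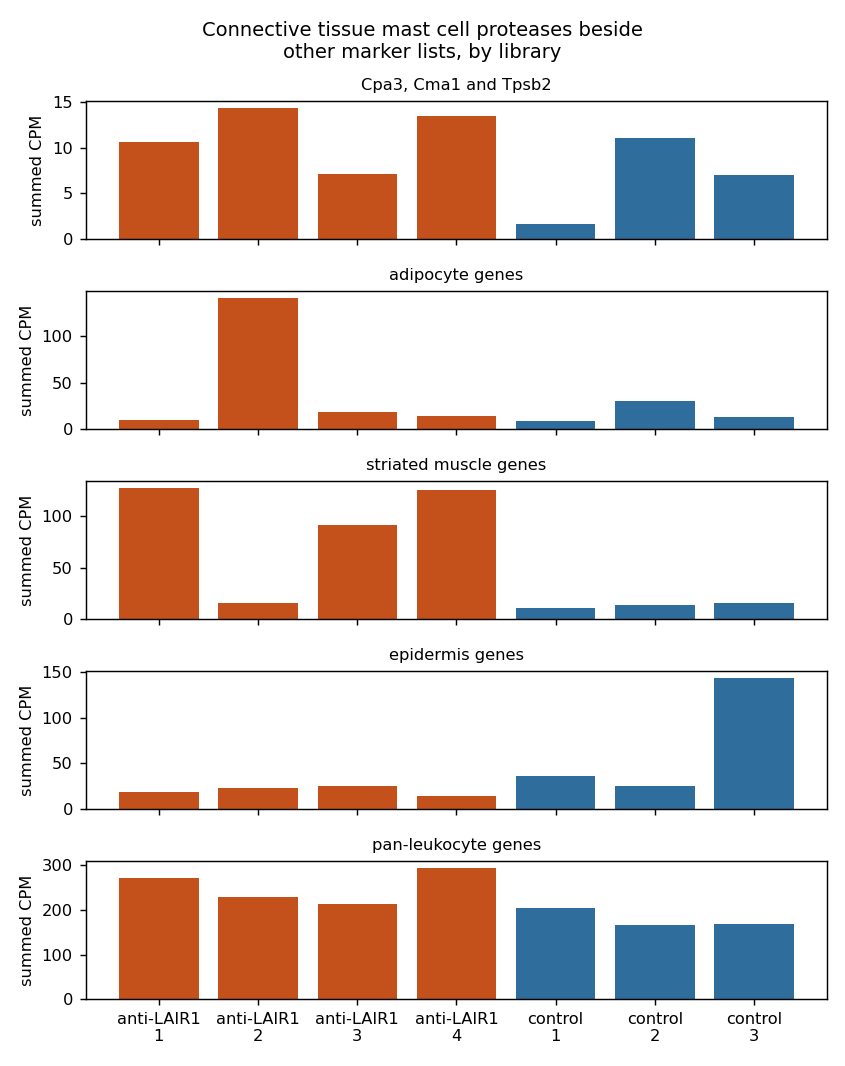
Summed CPM (y axes) of Cpa3, Cma1 and Tpsb2 and of 4 marker lists in each anti-LAIR1 (orange) and control (blue) library. Anti-LAIR1 replicate 2 and control replicate 2 have the tallest bars of their groups for both the proteases and the adipocyte genes, and control replicate 3 stands out for epidermis genes at 143 CPM.

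Further genes of mast cell and basophil biology were counted from 6 lists. By edgeR 0 were called in any list. By DESeq2, 2 of the 14 listed surface receptors were called, Fcer1g and Csf2rb2, and none in the other lists, beside 0.39% of all genes. Not all listed genes had a DESeq2 adjusted p. At an unadjusted p under 0.05, 3 of 9 tested surface receptors were higher and 1 lower (of 14 listed), and 5 of 14 IgE receptor signalling genes were higher and 0 lower, beside the 3.51% and 1.63% of all genes given above. The median log2 fold change was 0.35 for the tested receptors and 0.43 for the signalling genes, beside -0.0028 for all genes. Of the 15 pan-leukocyte markers, which share Ptpn6 with the signalling list, 6 were higher and 0 lower at that level, with a median of 0.51. The excess was thus not particular to genes of mast cells or of the IgE receptor. Fcer1g, the signalling chain that the IgE receptor shares with other Fc receptors, had 19.8, 17.4, 15.7 and 18.5 CPM with anti-LAIR1, against 11.64, 11.60 and 10.99 CPM in controls. All treated libraries exceeded all controls (log2 fold change 0.64, SE 0.13, edgeR adjusted p = 0.616, DESeq2 adjusted p = 0.0251), but this chain is common to many myeloid cells and was not near 0 as Fcer1a and Ms4a2 were. Csf2rb2, the IL-3-specific beta chain, had 21.8, 23.2, 18.7 and 25.1 CPM with anti-LAIR1, against 11.8, 12.9 and 15.8 CPM in controls (log2 fold change 0.73, SE 0.15, edgeR adjusted p = 0.624, DESeq2 adjusted p = 0.0164). Fyn and Ptpn6, a kinase and a phosphatase of many leukocytes, had log2 fold changes of 0.58 and 0.67.

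Of the genes for granule storage and mediator synthesis, 1 of 10 tested was higher at that level and 0 lower, with a median log2 fold change of 0.15. The 1 was Ptgs1, a prostaglandin synthase, with a log2 fold change of 0.55, and Tph1, the serotonin-making enzyme, had 1.07 with overlapping groups. In the list of other granule proteases 0 of 3 tested were higher or lower, with a median of 0.21. Among lineage transcription factors 0 of 10 were higher and 1 was lower, Runx1, with a log2 fold change of -0.31, and the next smallest p belonged to Cebpa, whose log2 fold change was 0.60. The median of the 10 was 0.088. Gata1, which acts with Gata2 in these lineages and was named after its values were seen, had 0, 0, 1 and 2 reads with anti-LAIR1, and 0 in each control.

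Of growth factors and cytokines 1 of 3 tested was higher and 0 lower, with a median log2 fold change of -0.17. Kitl, stem cell factor and thus the ligand of Kit, had 123, 116, 82.7 and 84.4 CPM with anti-LAIR1, against 70.7, 71.3 and 71.6 CPM in controls. Every treated library exceeded the controls, whose SD was 0.458 CPM (n = 3), and the log2 fold change was 0.51 (SE 0.15, edgeR adjusted p = 0.762). Il33, an alarm cytokine that activates mast cells, had a log2 fold change of -0.19 with overlapping groups. Il3 and Il9, growth factors of mast cells, had 0 reads in all libraries.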

How the data were processed

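The values deposited by the authors are whole read counts, with a row per gene symbol and a column for each of 7 tumours. The submitters' processing notes name mm10 and, in no stated order, edgeR 3.40.1, featureCounts 2.0.1, STAR 2.7.6 and Trim Galore. Per the labels' protocols, the libraries were directional and read as single 100-base reads. Which annotation was counted, with which strand setting, and how reads matching several places were handled is not given here by any source. Totals ran from 9879762 to 26255727 reads, and floors and counts cover counting error only.

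The test was that of edgeR 4.0.16 (R 4.3.3): filterByExpr (minimum count 10) by group, TMM scaling, a robust quasi-likelihood fit of all 7 libraries without covariates, and Benjamini-Hochberg adjustment over 13545 genes at a threshold of 0.05. CPM used TMM-scaled totals, and log2 CPM a prior count of 2. DESeq2 1.42.0 and limma 3.58.1 were alternatives. The code was tested on simulated data. Single members were also compared by an exact two-sided permutation test of CPM over the 35 ways to divide 7 libraries into 4 and 3. No 2 libraries agreed within sampling noise, the chi-square per gene between pairs being at least 6.43. Nothing beyond the mouse names says that tumours were independent, so p-values measure the spread between these samples.

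The members and lists were chosen with earlier results of these data known. All members were named, and from each of the 6 further lists the 2 tested genes with the smallest p. Mcpt1, Mcpt9, Cma2, Ctsg, Tpsg1, Cd200r3, Prss34, Gata1, Il3, Il9, Il2ra, Il7r, Gata3, Areg and Rora were named after their values were seen. Transcript lengths and shared stretches came from GENCODE M21 (GRCm38), gene positions from a RefSeq table of the same assembly, counted from 1. Aligned bases were compared with Biopython 1.88, taking the most alike pair of coding transcripts. The values of 1 further marker list are not reported here. Figures were drawn with matplotlib 3.10.9.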

Additional observations from a re-analysis of the deposited data

How the results depend on the processing

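The fold changes of Cpa3, Mcpt4, Cma1, Tpsb2, Tpsab1 and Kit stayed above 0 in all 15 alternatives, which changed the scaling, filter, test, depth or libraries, and no member passed an adjusted p of 0.05 in any. Cpa3 ran from 0.11 to 1.28, Cma1 from 0.92 to 2.61, Tpsb2 from 0.27 to 1.38, Tpsab1 from 0.52 to 1.45, Kit from 0.65 to 1.00 and Mcpt4 from 0.25 to 0.66. Hdc turned to 0.18 by limma-voom and 0.76 without control replicate 3, with a range from -0.80 to 0.76 over single libraries left out. Gata2 turned to -0.50 by limma-voom and -0.12 without anti-LAIR1 replicate 2, with a range from -0.12 to 0.58. The number of genes past the threshold was 54 by DESeq2, from 0 to 3 without single libraries, and 1 without control replicate 2 and anti-LAIR1 replicate 2 together, an alternative chosen after seeing the data. Without the filter Fcer1a and Ms4a2 had fold changes of 0.23 and 1.89 (edgeR adjusted p = 0.996 and 0.918).

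The count of members varying with Cpa3 by Pearson r was 1 over all 7 libraries. It was 0 without the 2 libraries farthest from the Cpa3 median and from 0 to 2 without single libraries. By Spearman rho, Tpsb2 and Gata2 passed over all libraries (exact permutation, adjusted p = 0.0304 for each). With 5 or 6 libraries fewer pairings exist, so the smallest p that can be reached is larger. Over the 5, Tpsb2 kept r = 0.97 with an adjusted exact permutation p of 0.15. Over those 5, the fall in the count therefore cannot be read as a weaker relation. With 6 libraries an adjusted exact permutation p of 0.025 was reached, for Tpsb2 without control replicate 3. Without control replicate 1 the r of Tpsb2 was lower, at 0.82 (adjusted exact permutation p = 0.1125). The r of Tpsb2 stayed between 0.82 and 0.99. That of Hdc turned to -0.66 without the 2 farthest libraries and -0.077 without control replicate 1, and that of Tpsab1 to -0.21 without anti-LAIR1 replicate 4, with a range from -0.21 to 0.35 over single libraries left out. Causes were not tested beyond this. Low read counts limit Fcer1a, Ms4a2 and, in some libraries, Cma1, Cpa3 and Gata2. The lowest counts of Cpa3 and Cma1, 10 and 5 reads, were in control replicate 1, the deepest library.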

Other observations

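Eosinophils, which share growth factors with mast cells and basophils, left little RNA of their granules. Of 9 eosinophil markers, Prg3, Ear1 and Ear6 were at 0 in all libraries and Epx had 1 read in control replicate 1 only. Il5ra, the IL-5 receptor alpha chain, had 41, 33, 52 and 37 reads with anti-LAIR1, against 12, 28 and 21 in controls. In CPM this was 2.699, 2.20, 4.49 and 2.69 with anti-LAIR1, and 0.475, 2.10 and 2.14 in controls, so each treated library stood above each control, the closest pair by a small margin. Its log2 fold change was 1.01 (SE 0.51, edgeR adjusted p = 0.98). Siglecf, a defining surface marker of eosinophils, had 2, 2, 2 and 3 reads with anti-LAIR1, against 0, 1 and 1 in controls, which is at or under 3 reads in every library. These genes were named after their values were seen.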
